A study of Mus musculus with 6 samples.

Results

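Toll-like receptors and the proteins that help them bind their ligands were measured in leukaemic mouse bone marrow labelled Gfi1b KO or wildtype. The 10 genes were chosen by name, as 6 receptors (Tlr1, Tlr2, Tlr4, Tlr6, Tlr7 and Tlr13) and 4 coreceptors (Cd14, Ly86, Ly96 and Cd180), and every probe set that named a member was kept, which gave 15 of the array's 45101 probe sets. All 10 genes averaged lower in the samples labelled Gfi1b KO than in wildtype samples, but only Ly86 passed an adjusted p under 0.05. Ly86 was 33.4-fold lower. The receptor genes Tlr13 and Tlr2 were 5.37-fold and 3.74-fold lower, and neither passed. The share of all 20577 genes that passed in this direction was 2.33%, and 4.53% passed in either direction.

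The 3 samples labelled Gfi1b KO came from mice with floxed Gfi1b alleles, the MxCre transgene and the NUP98/HOXD13 transgene, a fusion gene that models myeloid malignancy in mice. The 3 wildtype samples came from mice with the wildtype Gfi1b gene and the same MxCre and NUP98/HOXD13 transgenes. Mx-Cre is an interferon-inducible recombinase and is not restricted to blood cells. All mice were leukaemic, and RNA was taken from whole bone marrow, so a level here is that of a mixture of cells. Age, the promoter of the fusion gene and how Cre was induced are not given in the sources used here. Nothing in the labels says whether samples of 1 group are separate mice. The p-values therefore measure only how these samples scatter, which may be technical.

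Toll-like receptors are membrane proteins that bind conserved molecules of microbes through leucine-rich repeats and signal through a cytoplasmic TIR domain to NF-kappaB and interferon regulatory factors. Tlr2, with Tlr1 or Tlr6 as its partner, recognises bacterial lipopeptides, and Tlr4 recognises lipopolysaccharide with the help of Cd14 and Ly96. Tlr7 and Tlr13 sit in endosomes and recognise single-stranded RNA and bacterial ribosomal RNA. Cd180 is a relative of Tlr4 without a TIR domain and forms a complex with Ly86 on B cells and myeloid cells. In bone marrow most of these genes are used chiefly by monocytes, macrophages, neutrophils and dendritic cells, with B cells as a further source of Cd180, Ly86 and Tlr7.

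Gfi1b, the targeted gene, encodes a transcriptional repressor and had log2 values of 10.88, 11.63 and 11.67 in KO-labelled samples, against 5.83, 6.37 and 4.38 in wildtype samples. Its level was thus higher in KO-labelled samples, 58.2-fold (limma adjusted p = 0.00605). The deleted exons are not given in the sources used here, so the probe set cannot check the labels, and every direction below is that of the samples as labelled. Arrays correlated at 0.949 to 0.972 among KO-labelled samples, at 0.946 to 0.970 among wildtype samples and at 0.858 to 0.932 across the groups. The median of an array lay between 3.73 and 3.86, and a group mean under 3.73 is called near the floor, where low signal limits what a difference can show. Of 7 genes of marrow blood cells 0 averaged near the floor in KO-labelled samples, and 2 fell. Those that fell were Ptprc (log2 fold change -4.081, limma adjusted p = 0.0164) and Coro1a (-3.704, limma adjusted p = 0.012). Both differences were larger than that of any member except Ly86. Spi1 differed by -2.37 without passing (limma adjusted p = 0.0727), and Spn (0.93) and Runx1 (0.52) averaged higher without passing.

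Ly86 encodes the secreted partner of Cd180 and was the member with the widest gap between the groups. It read 5.06, 4.12 and 3.75 in KO-labelled samples, against 10.82, 8.10 and 9.20 in wildtype samples. Every sample labelled KO lay below every wildtype sample, and the gap between the groups was wider than the range within either. Ly86 averaged 4.31 ± 0.67 in KO-labelled samples and 9.37 ± 1.37 in wildtype (SD, n = 3 each). Ly86 differed by -5.06 on the log2 scale, with an error (SE) of 0.69 and a 95% interval of -6.73 to -3.40 (limma adjusted p over genes = 0.017). Without KO replicate 2 or 3 it was -4.97 or -4.78 and the limma adjusted p was 0.0994 or 0.0534. In the authors' deposited table, where probe sets are tested, the adjusted p of Ly86 is 0.0211.

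Cd180, the receptor that Ly86 binds, read 3.30, 3.07 and 3.66 in KO-labelled samples, against 5.74, 3.85 and 4.26 in wildtype samples. The groups did not overlap, although wildtype replicate 2 stood only just above KO replicate 3, and the mean of KO-labelled samples was near the floor. Cd180 averaged 3.35 ± 0.30 in KO-labelled samples and 4.62 ± 0.99 in wildtype (SD, n = 3 each). Its log2 fold change of -1.27 (95% interval -2.42 to -0.12) did not pass (limma adjusted p = 0.214). Without wildtype replicate 1, the sample with the highest Cd180, the difference was -0.71.

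The promoters of Ly86 and Cd180, the members of this complex, and of Tlr13, the receptor gene with the largest difference, are shown because they are the windows in which a regulator of these genes could bind. Each runs from 250 bases before to 50 after a transcript start in RefSeq (GRCm38.p6). Capitals mark GAGGAA, a core bound by the myeloid factor PU.1, or AATCNC, which holds the AATC core of GFI1 family sites, on either strand, and no marked matches overlapped.
Ly86, chr13:37345095-37345394, plus strand: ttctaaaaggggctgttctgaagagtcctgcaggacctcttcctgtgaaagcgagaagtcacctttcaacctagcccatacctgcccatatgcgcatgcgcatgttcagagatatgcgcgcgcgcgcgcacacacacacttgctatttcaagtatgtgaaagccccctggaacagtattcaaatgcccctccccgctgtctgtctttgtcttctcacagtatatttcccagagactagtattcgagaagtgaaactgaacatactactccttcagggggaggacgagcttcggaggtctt
Cd180, chr13:102693297-102693596, plus strand, the upstream of 2 starts: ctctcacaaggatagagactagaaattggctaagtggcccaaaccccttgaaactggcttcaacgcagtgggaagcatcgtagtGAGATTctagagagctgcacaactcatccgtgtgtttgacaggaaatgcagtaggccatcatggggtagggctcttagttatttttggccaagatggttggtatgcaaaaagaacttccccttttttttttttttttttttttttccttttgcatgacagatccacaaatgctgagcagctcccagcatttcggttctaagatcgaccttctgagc
Tlr13, chrX:106143025-106143324, plus strand: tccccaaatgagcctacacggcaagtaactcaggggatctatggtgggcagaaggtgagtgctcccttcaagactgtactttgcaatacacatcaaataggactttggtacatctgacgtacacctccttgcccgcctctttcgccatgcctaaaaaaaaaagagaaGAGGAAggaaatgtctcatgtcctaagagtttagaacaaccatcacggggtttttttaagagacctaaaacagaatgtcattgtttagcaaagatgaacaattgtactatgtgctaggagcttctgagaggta
Windows of 6 members, 9 in all, were searched. No promoter was available for Tlr4, Tlr7 or Ly96, and Cd14 was left out of the search. GAGGAA was found in 2 of the 9, those of Tlr13 and of the upstream start of Tlr1, and in 28.3% of 32851 promoters of the table. The match in the Cd180 window is on the opposite strand. AATCNC was found in 3 of the 9, both starts of Cd180 and the other start of Tlr1, and in 33.2% of all promoters. The Ly86 window, of the member with the largest difference, held neither. A match is a run of letters and not a measured site, and a missing match says nothing of either factor.

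Among the genes of lipopolysaccharide recognition, Cd14, the membrane protein that passes lipopolysaccharide on to the receptor complex, read 4.68, 4.24 and 4.41 in KO-labelled samples, against 5.89, 4.78 and 6.64 in wildtype samples. The groups did not overlap, and wildtype replicate 2 was close to KO replicate 1. Cd14 averaged 4.44 ± 0.22 in KO-labelled samples and 5.77 ± 0.93 in wildtype (SD, n = 3 each), with a log2 fold change of -1.33 (95% interval -2.39 to -0.26, limma adjusted p = 0.166).

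Tlr4 itself is measured by 4 probe sets, of which the brightest read 3.75, 3.65 and 3.96 in KO-labelled samples, against 4.37, 3.71 and 5.34 in wildtype samples. Wildtype replicate 2 lay among the KO-labelled samples, so the groups overlapped. The log2 fold change of Tlr4 was -0.69 (95% interval -1.63 to 0.25, limma adjusted p = 0.413), and -0.25 without wildtype replicate 3. The 3 further probe sets of Tlr4 differed by -0.54, -0.18 and 0.23, the last in the other direction, and those at -0.18 and 0.23 averaged near the floor in both groups and cannot show a difference. None of the 4 passed over all probe sets.

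Ly96, the lipopolysaccharide-binding subunit of the Tlr4 complex, read 4.14, 3.56 and 3.87 in KO-labelled samples, against 4.40, 3.77 and 4.36 in wildtype samples. These values overlapped, and the difference was the smallest of the 10 members. The log2 fold change of Ly96 was -0.32, with a 95% interval of -0.88 to 0.23 that includes 0 (limma adjusted p = 0.528).

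Among the lipopeptide receptors, Tlr2 showed a wider gap than its partners. Tlr2 read 4.26, 3.60 and 3.70 in KO-labelled samples, against 6.14, 4.57 and 6.56 in wildtype samples. No wildtype sample was as low as any sample labelled KO. Tlr2 averaged 3.85 ± 0.36 in KO-labelled samples and 5.76 ± 1.05 in wildtype (SD, n = 3 each), a log2 fold change of -1.90 (95% interval -3.13 to -0.68, limma adjusted p = 0.0979).

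Tlr1, which pairs with Tlr2 for triacylated lipopeptides, read 3.96, 3.23 and 3.42 in KO-labelled samples, against 4.37, 3.84 and 4.16 in wildtype samples. KO replicate 1 lay above wildtype replicate 2, so the groups overlapped, and the mean of KO-labelled samples was near the floor. Tlr1 differed by -0.59 (95% interval -1.15 to -0.02, limma adjusted p = 0.241).

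Tlr6, which pairs with Tlr2 for diacylated lipopeptides, read 4.25, 3.59 and 4.08 in KO-labelled samples, against 4.69, 4.10 and 4.75 in wildtype samples. Again only KO replicate 1 lay above wildtype replicate 2. Tlr6 differed by -0.54 (95% interval -1.13 to 0.06, limma adjusted p = 0.304). Tlr1 and Tlr6 are close relatives, and whether either probe set also binds the other's RNA was not tested.

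Tlr13 had the largest difference among the receptors. It read 4.48, 3.80 and 4.12 in KO-labelled samples, against 6.92, 5.37 and 7.39 in wildtype samples. The gap between the groups was wider than the range of KO-labelled samples, with wildtype replicate 2 again the lowest of its group. Tlr13 averaged 4.14 ± 0.34 in KO-labelled samples and 6.56 ± 1.05 in wildtype (SD, n = 3 each), a log2 fold change of -2.43 (95% interval -3.65 to -1.20) that missed the threshold (limma adjusted p = 0.0518). With an intensity trend in the limma moderation its adjusted p was 0.0323, with a filter on dim probe sets 0.033 and with a replicate block 0.0447. It did not pass with robust moderation (limma adjusted p = 0.0539) or with quantile normalization repeated (0.0541). Without wildtype replicate 2 the limma adjusted p was 0.00395, and without any other single sample it lay between 0.112 and 0.181.

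Tlr7, on its brightest probe set, read 3.60, 3.71 and 3.53 in KO-labelled samples, against 5.58, 4.10 and 5.34 in wildtype samples. KO-labelled samples were tightly grouped near the floor and below all wildtype samples. The log2 fold change of Tlr7 was -1.39 (95% interval -2.29 to -0.50, limma adjusted p = 0.0981). The 2 further probe sets of Tlr7 differed by -0.16 and -0.17 without passing, with means between 3.54 and 3.78 in either group, of which only 1 was above the floor, and with all 3 averaged the difference was -0.58.

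**Figure D1:**
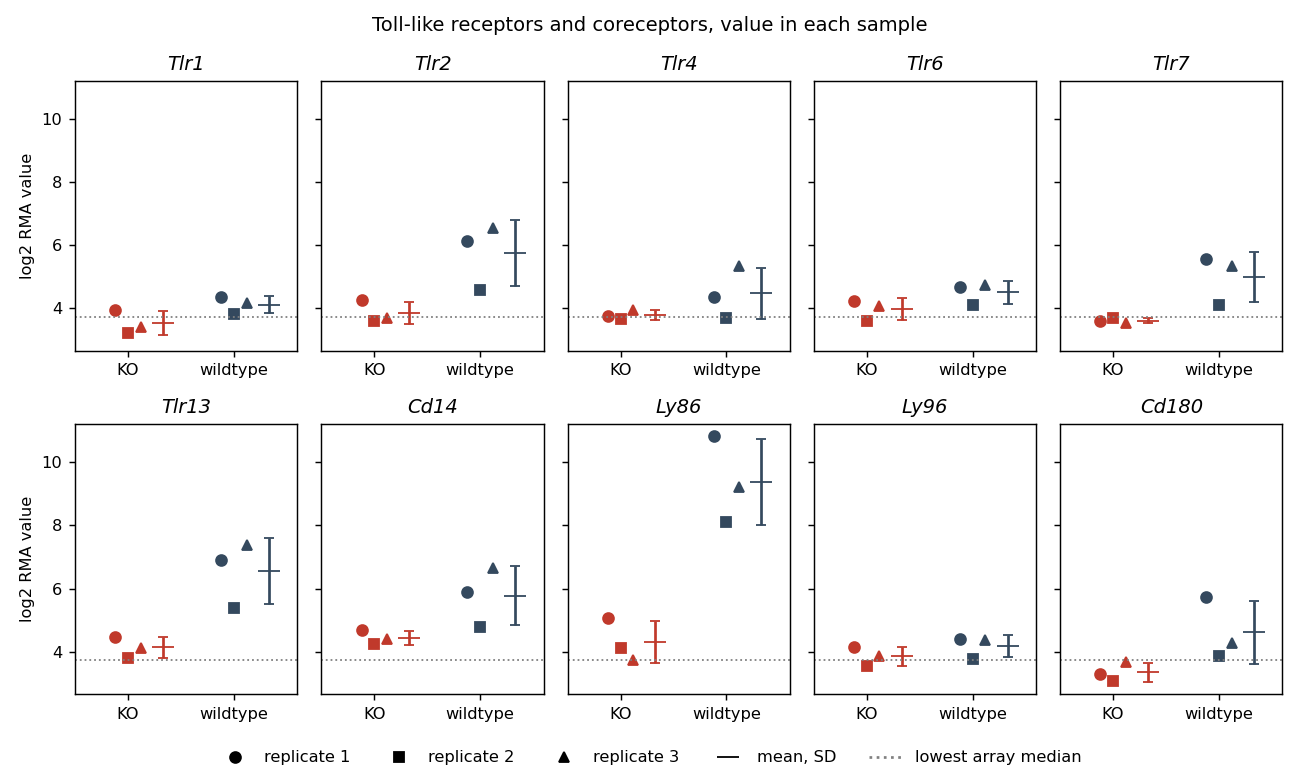
Value of each member's brightest probe set in every sample on the log2 scale, KO-labelled samples at the left (red) and wildtype samples at the right (dark blue), with marker shapes for replicates, bars for the mean and SD (n = 3 each) and a dotted line at the lowest array median, 3.73. Ly86 is the member with the widest gap, and wildtype replicate 2 (square) is the lowest wildtype sample in all 10 panels.

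**Figure D2:**
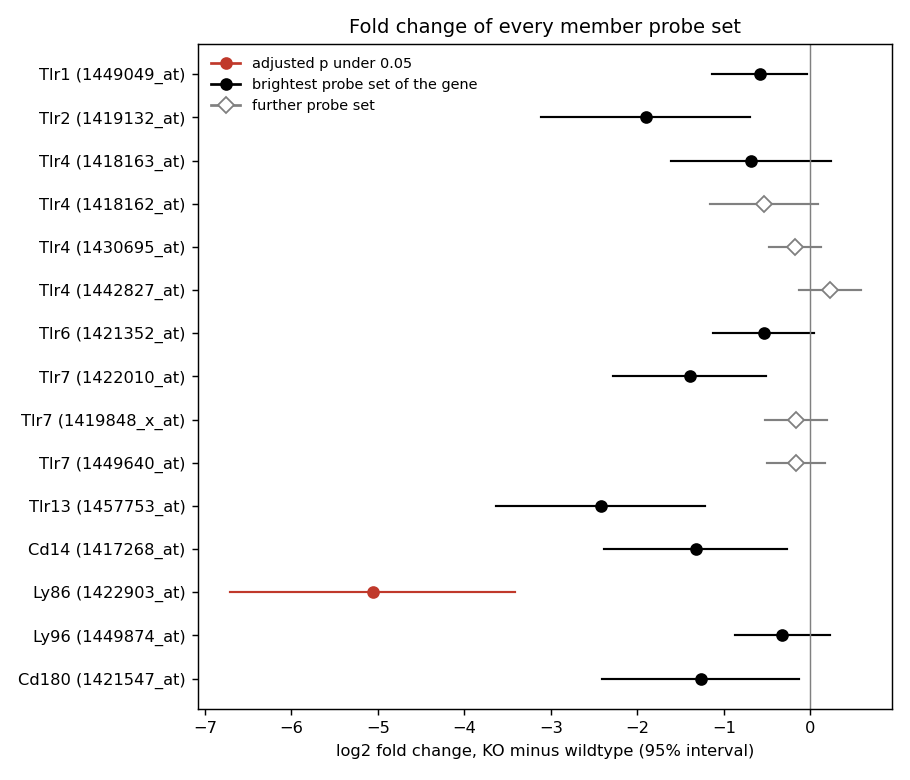
Log2 fold change, KO-labelled samples minus wildtype, of all 15 member probe sets with 95% intervals from the limma fit over all probe sets. Ly86 at -5.06 is the only probe set past an adjusted p under 0.05 (red), and the further probe sets of Tlr4 and Tlr7 (open diamonds) lie between -0.54 and 0.23.

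As a group, the members leaned one way while single calls were few. In the limma fit 1 of 10 passed, lower in KO-labelled samples, 0 were higher past the threshold, where 2.2% of all genes were, and 9 did not pass. At an unadjusted p under 0.05, 7 of 10 were lower and 0 higher, where 9.42% of all genes were lower. Every sample labelled KO lay below every wildtype sample in 6 of 10 members, Tlr2, Tlr7, Tlr13, Cd14, Ly86 and Cd180, and in 11.9% of all genes. The median log2 fold change was -1.30 over the members and 0.01 over all genes. Over probe sets, 1 of 15 passed, where 1.4% of all probe sets passed in this direction and 2.93% in either. At an unadjusted p under 0.05, 7 of 15 were lower, where 8.05% of all were, and 8 of 15 were lower without overlap, where 10.2% of all were. At an adjusted p under 0.1, 4 of 10 members and 2 of 15 probe sets were lower, where 4.36% of all genes and 2.77% of all probe sets were. These counts describe members chosen with results of these data known and are not a test of the group.

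Wildtype replicate 2 stood apart from the other wildtype samples in these genes. It was the lowest wildtype sample for all 10 members, and the lowest for 39.8% of all genes. The mean over the 10 members was 4.15, 3.66 and 3.85 in KO-labelled samples, against 5.89, 4.62 and 5.80 in wildtype samples. Without Ly86 the mean of the other 9 was 4.05, 3.61 and 3.86 in KO-labelled samples, against 5.34, 4.23 and 5.42 in wildtype samples. The groups stayed apart in both means, by less than the distance of wildtype replicate 2 from the other wildtype samples. When this sample was left out, 5 members fell past the threshold, namely Tlr2 (-2.50), Tlr7 (-1.85), Tlr13 (-3.02), Cd14 (-1.82) and Ly86 (-5.70), with limma adjusted p-values between 0.00394 and 0.0177, and 4.67% of all genes passed in this direction. Without KO replicate 2 or 3 limma called 0 members, where 0.068% and 0.85% of all genes passed the adjusted threshold in this direction. At an unadjusted p under 0.05, 4 and 5 members were lower in these 2 refits, for which the share of all genes was not counted. With all 6 samples that share was 9.42%. Without KO replicate 1, wildtype replicate 1 or wildtype replicate 3 the only call was Ly86, where 0.88%, 0.821% and 1.19% of all genes passed in this direction.

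Markers of the cells that carry these receptors were read in the same samples. Of 10 measured monocyte and macrophage markers 5 fell, 0 rose and 5 did not pass, and 1, Ccr2, averaged near the floor in KO-labelled samples. Their mean was 5.40, 4.49 and 4.26 in KO-labelled samples, against 8.87, 6.92 and 8.59 in wildtype samples, so that wildtype replicate 2 was again the lowest of its group. Of 10 measured neutrophil markers 6 fell and 0 rose, with means of 7.71, 6.35 and 4.20 in KO-labelled samples, against 11.03, 11.52 and 13.01 in wildtype samples. In this list wildtype replicate 2 was not the lowest, and KO replicate 3 was the lowest by far. KO replicate 3 was also the lowest KO-labelled sample in the monocyte and macrophage list. For 8 of 10 members the lowest KO-labelled sample was instead KO replicate 2, as for 42.5% of all genes. Of 9 B cell markers 1 fell, Cd79b, and 3 averaged near the floor in both groups, with list means between 3.79 and 3.93 in KO-labelled samples and between 4.11 and 4.30 in wildtype. Of 8 dendritic cell markers limma called 0, with 1 higher and 0 lower at an unadjusted p under 0.05, and the list means overlapped, 4.79 to 5.18 in KO-labelled samples and 4.46 to 5.61 in wildtype. T and NK cell markers averaged 7.67 in wildtype replicate 2, 4.45 to 4.81 in KO-labelled samples and 4.95 and 5.18 in the other wildtype samples, and of these 10 limma called 0, with 0 at an unadjusted p under 0.05. Of 10 erythroid markers 2 rose, Gata1 and Car1, and of 8 megakaryocyte and platelet markers 1 rose, Itga2b. Erythroid markers averaged 10.13, 9.69 and 7.85 in KO-labelled samples, against 7.27, 8.82 and 6.70 in wildtype samples. In whole marrow, fewer cells of a type and less RNA per cell cannot be told apart, and the part of these markers in the members' differences was not tested.

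**Figure D3:**
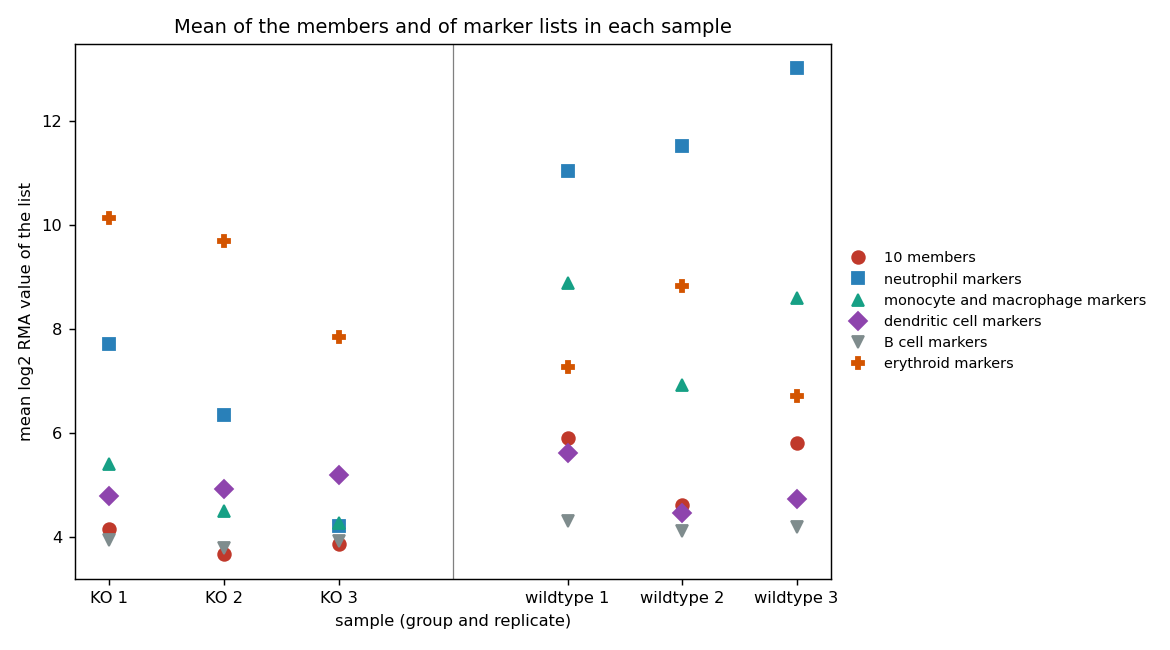
Mean log2 value in each sample of the 10 members and of 5 marker lists, KO-labelled samples left of the line and wildtype samples right of it. The members (red circles) and the monocyte and macrophage markers (green triangles) are both lower in wildtype replicate 2 than in wildtype replicates 1 and 3. The neutrophil markers (blue squares) are not. Both of these marker lists are lowest in KO replicate 3 among KO-labelled samples, and the members in KO replicate 2.

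The rest of the pathway was read from 7 lists by role, 107 genes of which 101 were measured. In the limma fit over all genes 14 fell, 2 rose and 85 did not pass, 15.8% called against 4.53% of all genes. Without KO replicate 1, 2 or 3 limma called 5, 0 and 8 of them, where it called 395, 47 and 440 of all genes. Without wildtype replicate 1, 2 or 3 it called 5, 21 and 7 of them, where it called 349, 1445 and 467 of all genes. So every call in the pathway named below was lost without KO replicate 2. The medians of the 7 lists were all below 0, where the median of all genes was 0.01.

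The other Toll-like receptors gave no call. Of 5 measured, limma called 0, with 1 lower at an unadjusted p under 0.05, and their median was -0.32. Tlr9, the endosomal receptor for unmethylated DNA, averaged 4.46 ± 0.17 in KO-labelled samples and 4.79 ± 0.12 in wildtype (SD, n = 3 each), with KO replicate 3 and wildtype replicate 1 both at 4.66 (log2 fold change -0.32, limma adjusted p = 0.285). Tlr12, a receptor for a parasite protein in the mouse, differed by -0.39, with a mean near the floor in KO-labelled samples (limma adjusted p = 0.203).

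Proteins that deliver the receptors or their ligands held 3 falls and 1 rise among 11 genes (median -0.62). Unc93b1, the chaperone that carries Tlr7, Tlr9 and Tlr13 to endosomes, read 6.23, 5.95 and 5.74 in KO-labelled samples, against 10.04, 8.01 and 8.94 in wildtype samples. This gap was wider than that of either endosomal receptor among the members, and Unc93b1 was 8.12-fold lower (log2 fold change -3.02, limma adjusted p = 0.0254). Slc15a3, an endolysosomal transporter of histidine and peptides, averaged 3.51 ± 0.07 in KO-labelled samples, near the floor, and 5.99 ± 0.81 in wildtype (SD, n = 3 each), 5.57-fold lower (limma adjusted p = 0.0231). Lbp, the soluble protein that hands lipopolysaccharide to Cd14, read 4.63, 4.77 and 3.99 in KO-labelled samples, against 7.89, 6.85 and 8.65 in wildtype samples. Lbp was 10.1-fold lower (limma adjusted p = 0.0171), and its dimmer further probe set differed by -0.52 without passing, and the mean of both by -1.93. Ap3b1, a subunit of the adaptor complex that sorts endosomal receptors, went the other way, at 10.19 ± 0.98 in KO-labelled samples and 7.88 ± 0.14 in wildtype (SD, n = 3 each), 4.95-fold higher (limma adjusted p = 0.0457). Its further probe set differed by 0.98 (limma adjusted p over probe sets = 0.0995). Ap3b1 did not pass when quantile normalization was repeated (limma adjusted p = 0.0569), and of the refits without 1 sample it passed only in that without KO replicate 3.

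The adaptors and kinases next to the receptors mostly did not pass. Of 18 measured, 1 rose, 0 fell and 17 did not pass (median -0.39). The gene that rose was Tab3, which links the ubiquitin ligase Traf6 to the kinase Map3k7. Tab3 read 6.04, 6.25 and 5.65 in KO-labelled samples, against 4.50, 4.87 and 4.23 in wildtype samples, 2.72-fold higher without overlap (limma adjusted p = 0.0245).

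Of 16 NF-kappaB and IRF effectors 4 fell and 0 rose (median -0.41). Irf8, which directs monocyte and dendritic cell development, read 4.10, 3.85 and 3.45 in KO-labelled samples, against 10.39, 7.88 and 8.48 in wildtype samples, in the same order of samples as Ly86 within each group. Irf8 was 34.8-fold lower (limma adjusted p = 0.0133), and its further probe set fell too, by 3.34 on the log2 scale. Irf1 and Ikbke, a transcription factor and a kinase of interferon induction, fell by 1.69 and 1.07 on the log2 scale (limma adjusted p = 0.0332 and 0.0418). Irf3, which acts downstream of Tlr4, fell by 0.77 (limma adjusted p = 0.0225). The identifier of this probe set carries the x mark, by which it may match other transcripts. The 3 further probe sets of Irf3 differed by -0.40, -0.31 and 0.10 without passing. Irf3 did not pass with an intensity trend (limma adjusted p = 0.0945) or on the mean of its probe sets (-0.34, limma adjusted p = 0.165). Nor did it pass without probe sets of the x, s or a mark (-0.31, limma adjusted p = 0.277). The Irf1 probe set carries the a mark instead of the x mark of Irf3.

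Negative regulators held 3 falls and 0 rises among 20 genes (median -0.35). Dusp1, a phosphatase that ends MAP kinase signals, read 5.93, 4.50 and 4.62 in KO-labelled samples, against 8.05, 8.54 and 7.42 in wildtype samples, 7.91-fold lower (limma adjusted p = 0.0221). The NF-kappaB inhibitors Nfkbia and Nfkbie fell by 1.31 and 0.91 on the log2 scale (limma adjusted p = 0.0488 and 0.031), Nfkbie on a probe set whose identifier carries the a mark. The further probe set of Nfkbie differed by -0.74 without passing (limma adjusted p over probe sets = 0.0858), with a mean near the floor in KO-labelled samples. Nfkbia did not pass with an intensity trend (limma adjusted p = 0.0575), with robust moderation (0.0509) or on the mean of its probe sets (0.0519). The 4 further probe sets of Nfkbia differed by -1.29 to -1.40, with limma adjusted p-values over probe sets between 0.0501 and 0.11.

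Cytokine and inflammatory targets gave no call. Of 22 measured, limma called 0, with 1 higher and 4 lower at an unadjusted p under 0.05, and their median was -0.14. Of these 22, 7 averaged near the floor in both groups and cannot show a difference. Cd80, a costimulatory molecule with a mean near the floor in KO-labelled samples, differed by -0.78 (limma adjusted p = 0.0557). The identifier of this probe set carries the a mark. With an intensity trend the limma adjusted p of Cd80 was 0.0466. Its 3 further probe sets differed by -0.12, -0.30 and 0.10, and the mean of all 4 by -0.28. Il1b read 4.52, 5.14 and 4.98 in KO-labelled samples, against 5.47, 7.06 and 7.34 in wildtype samples, and did not pass (limma adjusted p = 0.108).

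Other binding partners of microbial lipids and sugars held 4 falls and 0 rises among 9 measured genes (median -1.24). Clec7a, the beta-glucan receptor that acts together with Tlr2, read 4.50, 4.74 and 4.25 in KO-labelled samples, against 8.90, 7.53 and 8.92 in wildtype samples. Clec7a was 15.5-fold lower (limma adjusted p = 0.00787). The integrin chains Itgam and Itgb2, which form complement receptor type 3, were 15.2-fold and 7.98-fold lower (limma adjusted p = 0.0288 and 0.0246). Fcgr2b, the inhibitory Fc receptor, fell by 3.55 on the log2 scale (limma adjusted p = 0.0176), on a probe set whose identifier carries the s mark. Of its further probe sets 3 fell too, and the only probe set of Fcgr2b whose identifier lacks the x, s or a mark averaged 3.22 in KO-labelled samples and 3.16 in wildtype, near the floor. The mean of all its probe sets differed by -2.05.

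**Figure D4:**
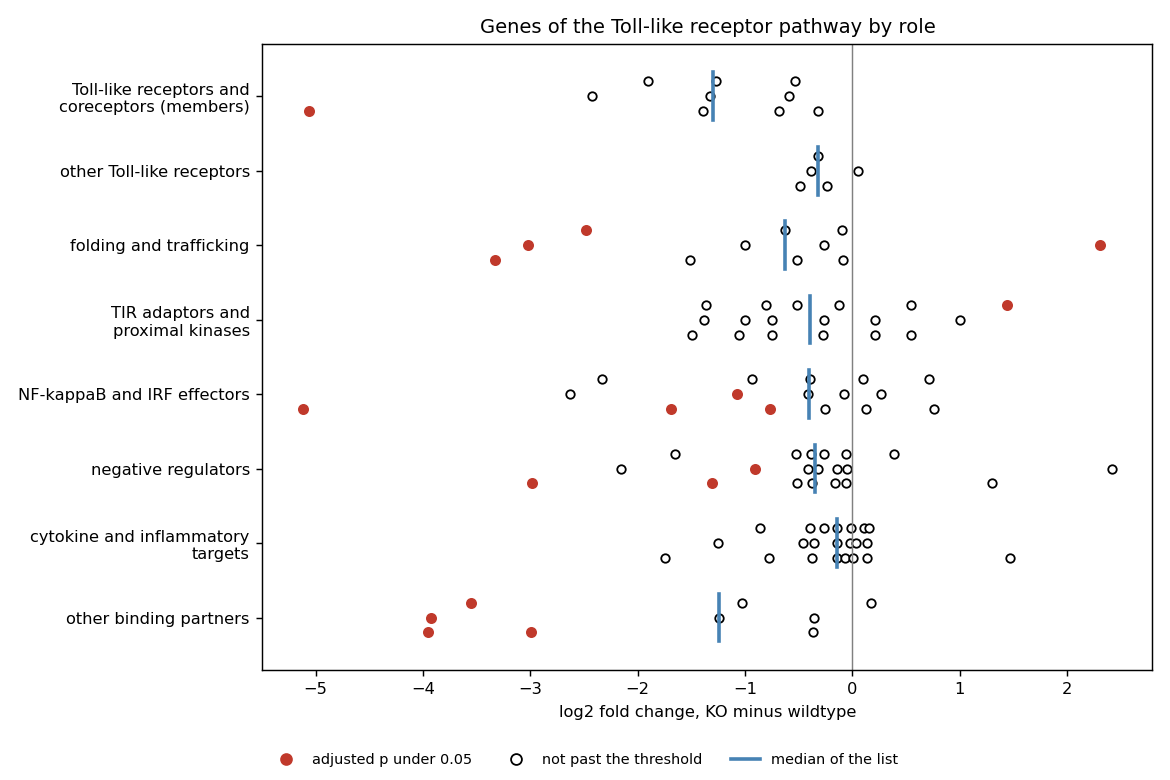
Log2 fold change, KO-labelled samples minus wildtype, of each measured gene of the members and of 7 lists of the pathway (1 point per gene, spread vertically for legibility), with filled points past an adjusted p under 0.05 and a bar at each list's median. Of the 14 pathway genes that fell, 3 are delivery proteins, 4 effectors, 3 negative regulators and 4 other binding partners, and the 2 filled points at the right are Ap3b1 and Tab3.

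The genes whose profile over the 6 samples came closest to the mean profile of the 10 members were Ppt1, Ube2w, Ogfrl1, Arap1 and Daglb, with root mean square differences of 0.13 to 0.16 on the log2 scale after centring. Among the members Tlr7 was nearest, at 0.20, and Ly86 farthest, at 1.85. Ppt1, a lysosomal thioesterase, read 5.85, 5.61 and 5.50 in KO-labelled samples, against 7.43, 6.28 and 7.50 in wildtype samples. Of these 5 genes Ube2w passed by itself, with a log2 fold change of -1.49 (limma adjusted p = 0.0467). The 3 further probe sets of Ube2w differed by -0.16, -0.37 and 0.12 without passing, and the mean of all 4 by -0.47 (limma adjusted p = 0.106). Of the further probe sets of Ogfrl1 1 fell, by 2.23 on the log2 scale (limma adjusted p over probe sets = 0.0492), and 1 did not pass, while those of Ppt1 differed by -0.13 to -1.03 without passing. The likeness is a description over 6 samples. These genes were picked by it, so their lower values in KO-labelled samples follow from the choice and are not a separate result.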

How the data were processed

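Whole bone marrow RNA of 6 leukaemic mouse samples, 3 labelled Gfi1b KO and 3 wildtype, was hybridised to Affymetrix MG-430_2.0 arrays, 1 per sample. The authors deposited log2 values made with RMA, a method of background correction, quantile normalization and probe summaries that the submitters' processing notes name. The sources used here do not give its version. The annotated table repeats these log2 values (largest difference 0) and, per the file headers, adds gene symbols, deposited p-values before and after adjustment, and signed fold changes. Quantile normalization makes a difference relative to the rest of its array.

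Of 45101 probe sets 64 were array controls and 37285 named 1 gene. Symbols were updated through RefSeq, and a gene was represented by its brightest probe set (by the mean of all 6 samples), which left 20577 genes. Genes, and separately the 45037 probe sets, were fitted with limma 3.58.1 (lmFit, eBayes; R 4.3.3) as KO-labelled minus wildtype samples, with two-sided tests and Benjamini-Hochberg adjustment over all of them and a threshold of 0.05. No filter was used. Intervals and standard errors are limma's, and the fit over genes is meant unless probe sets are named.

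The members, lists and tests were chosen with earlier results of these data known. Named pathway genes are up to 6 past the threshold per list, or otherwise the 2 with the smallest p. The code was tested on simulated data. The number of arrays limits the precision. Samples with the same replicate number did not vary together, although 3 samples per group can hardly show a pairing. Alternatives were a replicate block, leaving out each sample, repeated quantile normalization, the annotated table, an intensity trend and robust moderation. Further ones were a filter on dim probe sets, the mean of a gene's probe sets, Holm adjustment and other thresholds. Another left out probe sets whose identifiers carry the x, s or a mark. Plots used matplotlib 3.10.9 (Python 3.11.15).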

Additional observations from a re-analysis of the deposited data

How the results depend on the processing

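All 10 members kept their direction under the 14 refits run for each, with log2 fold changes of Ly86 between -5.70 and -4.34. The count of genes past the threshold was 933, of member genes 1, of member probe sets 1 and of pathway genes 16. Leaving out each sample in turn gave 47 to 1445 genes, 0 to 5 member genes, 0 to 5 member probe sets and 0 to 21 pathway genes. With the replicate number as a block there were 589 genes, 2 member genes and 2 member probe sets, Tlr13 joining Ly86 in both. Correlations of the deviations of same-numbered samples were -0.14, -0.03 and -0.02, and those of other pairs ran from -0.08 to 0.13. With 3 samples per group these values cannot show whether the numbers pair the samples. An intensity trend gave 901 genes, 522 of them lower in KO-labelled samples. A filter on dim probe sets gave 1134 genes, 593 of them lower, out of fewer genes tested. Each of these 2 settings gave 2 member genes and 2 member probe sets. Holm adjustment left 12 genes and, in limma, 0 member genes, 0 member probe sets and 0 pathway genes, while 7 members were lower at an unadjusted p under 0.05. An adjusted p under 0.1 gave 1778 genes, 4 member genes, 2 member probe sets and 26 pathway genes. Without probe sets that carry the x, s or a mark, Fcgr2b was represented by a probe set near the floor. Its log2 fold change was then 0.0523 (limma adjusted p = 0.854). Other causes of these shifts were not tested. Low signal limits Tlr1, Tlr7 and Cd180, whose means in KO-labelled samples were near the floor. Tlr2, Tlr4 and Ly96 averaged 3.85, 3.79 and 3.85 in KO-labelled samples. Those means lay above the floor but under the highest array median, 3.86, so low signal may limit these genes too.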

Other observations

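Some pathway genes outside the rule for named genes, chosen after their values were seen, differed in opposite directions without passing. Traf6, the ubiquitin ligase of the Myd88 branch, averaged 6.07 in KO-labelled samples and 5.07 in wildtype (limma adjusted p = 0.0819), and Traf3, the ligase of the interferon branch, 4.30 in KO-labelled samples and 5.68 in wildtype (limma adjusted p = 0.076). Myd88 itself averaged 6.88 in KO-labelled samples and 7.63 in wildtype (limma adjusted p = 0.434). Hsp90b1, the chaperone that folds most Toll-like receptors, averaged 7.28 in KO-labelled samples and 8.79 in wildtype (limma adjusted p = 0.0524). Il6 averaged 4.53 in KO-labelled samples and 3.06, near the floor, in wildtype (limma adjusted p = 0.134).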
